A study of Homo sapiens with 8 samples.

Results

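The genes described here encode the proteins of the mitochondrial ribosome and are recognised by their symbols, MRPL for the large subunit and MRPS for the small subunit followed by a digit. The deposited gene tables held 80 such rows among 25192 gene symbols, and 79 of them had at least 10 expected counts in at least 2 of the 8 libraries, a filter that 14772 symbols passed. By symbol, the 79 members comprised 47 MRPL genes, 29 MRPS genes and the 3 pseudogenes MRPL42P5, MRPL45P2 and MRPS31P5. The row that missed the filter was MRPL23-AS1, an antisense RNA gene.

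The study asked what the loss of PRDX2 (also called PrxII), a thiol peroxidase that removes hydrogen peroxide, does in colorectal cancer cells. HT29 and SW480 are established human colorectal cancer cell lines that both carry a truncated APC, the tumour suppressor that holds down Wnt signalling. Cells of each line received either a control siRNA (siCon) or an siRNA against PRDX2 (siPrdx2) for 36 h, and messenger RNA was sequenced from 2 libraries in each of the 4 groups. HT29 cells grew in McCoy's 5A and SW480 cells in RPMI1840, so that the line and its medium cannot be told apart. The study's methods describe the sequencing of the HT29 samples, and the same processing of the SW480 samples is assumed from the like form of the files. Whether the lines were prepared and sequenced together is not stated, so a difference of that kind cannot be told apart from the line either. The labels describe duplicates without saying whether these were separate transfections, and they do not name which siRNA against PRDX2 was used. The p-values given here therefore reflect how far duplicates differed, and that difference may be technical.

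The mitochondrial ribosome makes the few proteins that mitochondrial DNA still encodes, all of them core subunits of the respiratory chain and the ATP synthase. Its ribosomal RNA comes from mitochondrial DNA, whereas every one of its proteins is encoded in the nucleus, made in the cytosol and imported. The small subunit reads the messenger RNA, and the large subunit joins the amino acids and releases the new chain at a tunnel exit beside the inner membrane. Many of its proteins descend from bacterial ribosomal proteins, and others were added during the evolution of mitochondria.

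Library totals lay between 8857442 and 10164137 expected counts, so that 3 counts corresponded to 0.295 to 0.339 CPM (counts scaled to the library total). PRDX2 itself stood at 148.1 and 153.8 CPM in the HT29 siCon libraries and at 82.4 and 83.2 CPM in the HT29 siPrdx2 libraries. In SW480 it stood at 209 and 246 CPM with siCon and at 69.5 and 70.7 CPM with siPrdx2. The targeted transcript was thus lower in every siPrdx2 library, as the labels say. The fall was -0.87 on the log2 scale (SE 0.05) in HT29 and -1.70 (SE 0.12) in SW480. All 7 epithelial markers were detected in both lines, PTPRC, the defining leukocyte marker, was at 0 in every library, and summed fibroblast and endothelial markers stayed at or below 9.72 TPM. LYZ, a lysozyme gene placed among the leukocyte markers, had 4429 to 4652 TPM in HT29 and 4.80 to 7.33 TPM in SW480.

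The 5 stretches of promoter sequence below show the short words that recur before the start sites of these genes. The RefSeq promoter windows (GRCh38.p14, 250 bases before to 50 after the start) matched 67 members. Words of 7 letters were searched on both strands for 3 kinds of transcription factor known for binding near nuclear genes of mitochondria. A gene was counted when any of its windows held the word, so genes with more windows had more chances of a match. The word CCGGAAG of ETS factors such as GABPA was found for 29 of 67 members (43.3%) and for 16.5% of 15843 protein-coding genes. The word ATGGCGG of YY1 was found for 23 members (34.3%, against 9.15% of all), and the word GCGCATG of NRF1 for 7 (10.4%, against 6.82% of all). Matches of different words may overlap, and a match describes letters and not a bound site. The stretches belong to 5 of 12 members considered, chosen for their results below or their role, and are those for which a word was found before the start. MRPL23, also considered, had no promoter window to search. Each runs 5′ to 3′ on the strand of the gene and spans 60 bases, with the words or their reverse complements in capitals.
MRPS22, ETS word in both orientations, chr3:139343884-139343943: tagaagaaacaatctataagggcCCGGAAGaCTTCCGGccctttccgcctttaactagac
MRPL52, YY1 word, chr14:22829765-22829824: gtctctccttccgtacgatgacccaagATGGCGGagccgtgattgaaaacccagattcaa
MRPS21, ETS word, chr1:150293801-150293860: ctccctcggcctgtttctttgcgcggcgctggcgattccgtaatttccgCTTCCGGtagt
MRPL48, ETS word, chr11:73787784-73787843: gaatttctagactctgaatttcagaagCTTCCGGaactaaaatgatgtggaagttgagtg
MRPS12, ETS word, chr19:38930894-38930953: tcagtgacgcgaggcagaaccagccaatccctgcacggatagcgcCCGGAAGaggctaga

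RNA of the 76 protein genes was detected in every library. All 76 exceeded 10 TPM (abundance scaled to transcript length and library total) in every library. Their mean TPM over the 8 libraries had a median of 89.3, with quartiles of 60.9 and 132, and the highest exceeded the lowest 14.9-fold. The members together took 0.740% and 0.739% of all TPM in the HT29 siCon libraries and 0.768% and 0.771% in the HT29 siPrdx2 libraries. In SW480 they took 0.901% and 0.860% with siCon and 0.881% and 0.884% with siPrdx2. In these bulk libraries a share of this kind does not separate less RNA per cell from fewer cells.

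MRPL51, a protein particular to the mitochondrial large subunit, had the highest mean level. It stood at 240 and 237 TPM in HT29 siCon, 232 and 228 TPM in HT29 siPrdx2, 436 and 423 TPM in SW480 siCon and 476 and 470 TPM in SW480 siPrdx2. All 4 SW480 libraries lay above all 4 HT29 libraries. MRPS6 followed with a mean of 322 TPM, carried by SW480 alone: its 4 HT29 libraries held 93.1 to 108 TPM and its 4 SW480 libraries 513 to 594 TPM. MRPL12, the counterpart of bacterial L7/L12 in the flexible stalk that receives translation factors, averaged 239 TPM, and MRPL21 averaged 237 TPM. The lowest means belonged to MRPS14 with 29.9 TPM, MRPS25 with 25.9 TPM, MRPS36 with 23.2 TPM and MRPL19 with 22.9 TPM. MRPS36 is named for the small subunit but is now known as a part of the oxoglutarate dehydrogenase complex. Across the 76 genes, the order of the mean siCon levels was similar in both lines (Spearman rho 0.77, a description in which genes are not independent and length and base composition are shared).

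**Figure D1:**
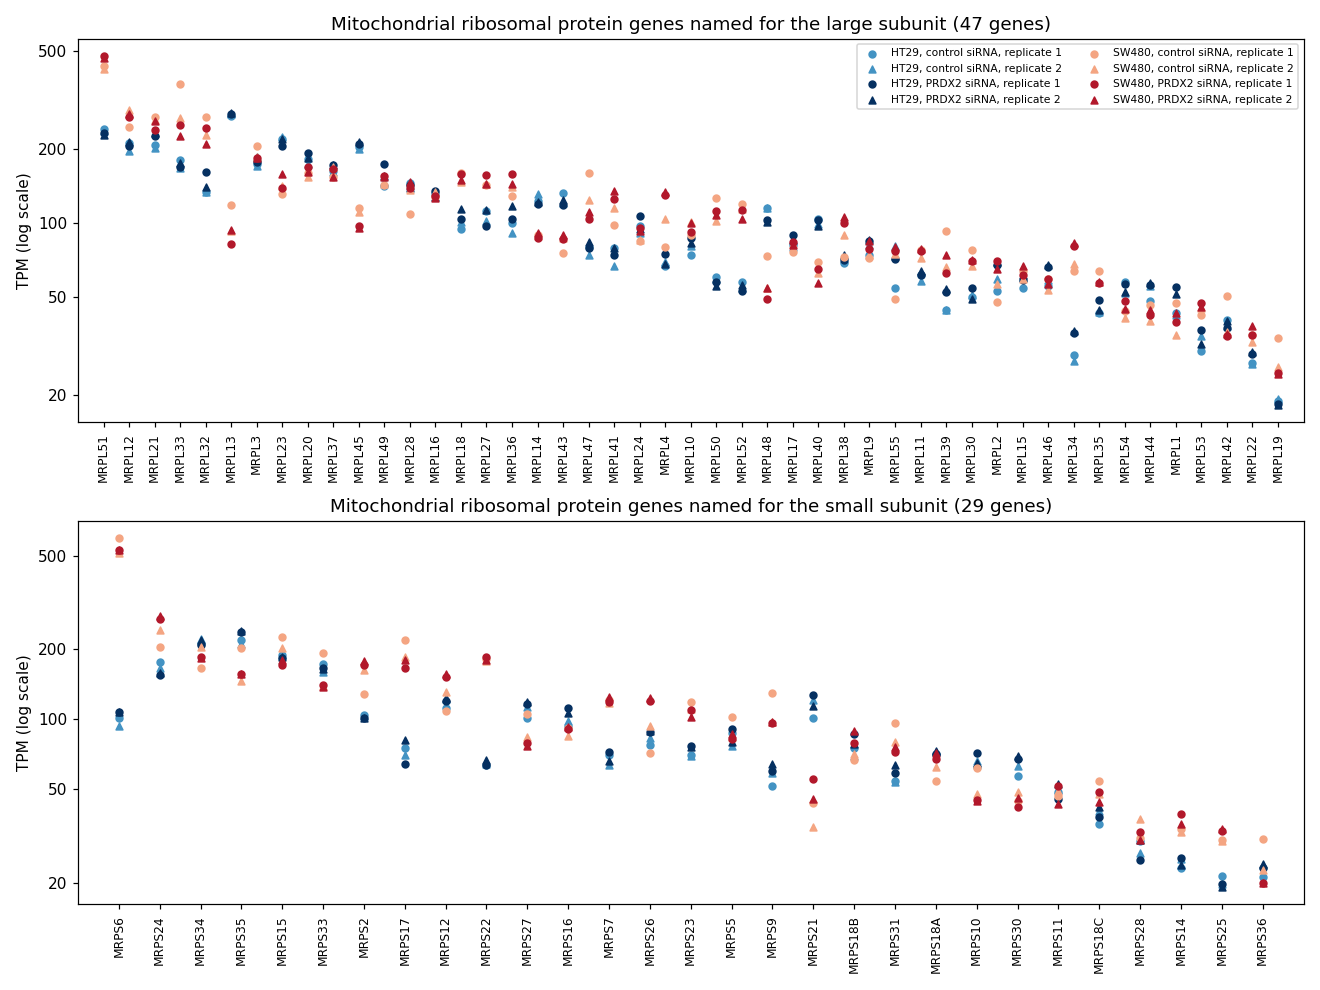
TPM on a log scale for each of the 76 protein genes, ordered by mean, with 1 point for each library (circles are replicate 1 and triangles replicate 2). Most genes lie between 20 and 300 TPM in every library, and MRPS6 in SW480 stands apart at 513 to 594 TPM.

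PRDX2 knockdown in HT29 left nearly all of these genes within a narrow band. MRPL1, which builds the stalk where spent transfer RNA leaves the ribosome, rose, and MRPL48, of the central protuberance of the large subunit, fell. In all, 2 of 79 members passed the quasi-likelihood test of edgeR at a Benjamini-Hochberg adjusted p of 0.05, beside 17.6% of the 12961 genes tested. Of all genes, 7.76% were called higher and 9.82% lower. Members and all genes tested had the same median log2 fold change, 0.00.

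MRPL1 stood at 26.3 and 25.8 CPM with siCon and at 31.99 and 30.2 CPM with siPrdx2. Both knockdown libraries lay above both controls. The log2 fold change was 0.26 (SE 0.08, edgeR adjusted p = 0.0416), and the gene lies on chromosome 4 at 78783984 to 78873939, plus strand, in GRCh37 (hg19). MRPL48 stood at 49.9 and 50.1 CPM with siCon and at 42.4 and 41.9 CPM with siPrdx2. Here both knockdown libraries lay below both controls. The log2 fold change was -0.25 (SE 0.06, edgeR adjusted p = 0.0133), and the gene lies on chromosome 11 at 73498917 to 73576178, plus strand, in GRCh37. Both calls depended on the settings: DESeq2 called 0 members (6.72% of all genes), a fit of all 8 libraries called 0 (1.25%), and limma on log2(TPM + 1) called 9 (13.9%). Leaving out the first siPrdx2 library left 0 members called (12.3% of all genes), and leaving out the second called MRPL49 alone (13.2%). Leaving out the first siCon library called MRPL48 alone (15.8%), and leaving out the second called MRPL2, MRPL48 and MRPS24 (14.8%).

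Members near the threshold in HT29 included MRPS24, on the entry side of the small subunit for messenger RNA, at 52.7 and 49.8 CPM with siCon and 44.3 and 45.6 CPM with siPrdx2. Its log2 fold change was -0.19 (SE 0.07, edgeR adjusted p = 0.0540), and its groups did not overlap. MRPL2, the counterpart of bacterial L2, stood at 30.6 and 34.2 CPM with siCon and 37.1 and 38.6 CPM with siPrdx2, a log2 fold change of 0.22 (SE 0.08, edgeR adjusted p = 0.0610). MRPS16, in which mutations cause a mitochondrial disease, stood at 113 and 119 CPM with siCon and 129 and 124 CPM with siPrdx2, a log2 fold change of 0.13 (SE 0.05, edgeR adjusted p = 0.0830). The siCon and siPrdx2 libraries did not overlap for 42 of 79 members, 21 higher and 21 lower, beside 57% of all genes tested (28.3% higher and 28.7% lower).

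The intervals in HT29 were narrow for most members, measured by the spread between duplicates, which may be technical. For 77 of 79 members, the 95% interval of the fold change lay within 1.5-fold in either direction, and the median half-width of the interval was 0.15 on the log2 scale. Several members named for their role gave small values, from a list written with earlier results of these data known. Others of that list, such as MRPS16, MRPS18B and MRPS30, had larger values, given in the paragraphs before and after. MRPS12, which shapes the decoding centre, had a log2 fold change of -0.01 (95% interval -0.14 to 0.13). MRPL3, near the peptidyl transferase region, had 0.01 (-0.09 to 0.11), MRPL12 had -0.03 (-0.14 to 0.09), and MRPL45, which holds the tunnel exit to the inner membrane, had -0.01 (-0.10 to 0.08). MRPL44 and MRPS22, further genes mutated in mitochondrial disease, had 0.06 (-0.10 to 0.22) and -0.03 (-0.20 to 0.13).

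Some symbols do not match the place of the protein, and their values in HT29 are given together. MRPS18A and MRPS30 carry small subunit names but sit in the large subunit, and MRPL42 was once listed with the small subunit too. Their log2 fold changes were -0.07 (SE 0.07), 0.13 (SE 0.07) and -0.09 (SE 0.06). The 2 other proteins of the S18 family, MRPS18B and MRPS18C, had 0.13 (SE 0.07) and 0.01 (SE 0.11). None of these 5 passed the edgeR test. By symbol, 2 of 47 MRPL genes (4.26%) and 0 of 29 MRPS genes were called in HT29 by edgeR, beside 17.6% of all genes. An unadjusted p under 0.05 was found by edgeR for 8 (17%) and 2 (6.9%) of them, beside 30.2% of all genes. DESeq2 called 0 of either, beside 6.72% of all genes.

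In SW480, knockdown of PRDX2 gave 0 calls among the 78 members tested (MRPL42P5 missed the filter there), beside 3.3% of the 14112 genes tested. Unadjusted p-values under 0.05 were found for 15 members (19.2%, against 24.4% of all genes) by edgeR. DESeq2 called 0 members (4.86% of all genes) and limma on log2(TPM + 1) called 0 (1.52%). The members' median log2 fold change was -0.08 against 0.00 for all genes, with 53 members below 0 and 25 above. The siCon and siPrdx2 libraries did not overlap for 45 of 78 members, 12 higher and 33 lower, beside 58.6% of all genes tested (29.6% higher and 29% lower).

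The SW480 members with the smallest p-values, shown for that reason, moved in both directions. MRPL47, beside the tunnel exit, stood at 81.6 and 64.0 CPM with siCon and at 49.96 and 53.8 CPM with siPrdx2, a log2 fold change of -0.49 (SE 0.14, edgeR adjusted p = 0.0921). MRPL33 stood at 71.7 and 53.4 CPM with siCon and at 45.6 and 41.2 CPM with siPrdx2, a log2 fold change of -0.52 (SE 0.16, edgeR adjusted p = 0.0975). In both genes the groups did not overlap, and the 2 siCon libraries lay farther from each other than the second siCon library lay from either knockdown library. MRPS26 stood at 32.02 and 42.4 CPM with siCon and at 50.9 and 52.2 CPM with siPrdx2, a log2 fold change of 0.47 (SE 0.15, edgeR adjusted p = 0.115). MRPL4, the counterpart of bacterial L4, stood at 50.9 and 67.0 CPM with siCon and at 78.2 and 80.0 CPM with siPrdx2, a log2 fold change of 0.42 (SE 0.14, edgeR adjusted p = 0.126). Again the first siCon library was the farthest from the knockdown libraries. The fit of all 8 libraries, which shares 1 estimate of the spread between the lines, called these 4 genes, with edgeR adjusted p from 0.0190 to 0.0319. It called 8 of 79 members, beside 16.3% of all genes.

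The SW480 siCon duplicates differed from each other along the GC content of the transcripts, and the members followed this closely. Over 78 members with a GC value, the log2 ratio of siCon replicate 1 to replicate 2 had a Spearman correlation of -0.81 with GC content, and over all genes it was -0.72. The siPrdx2 duplicates gave -0.11 over the members, and the HT29 siCon duplicates gave 0.04. The members share their library and depth within each ratio, so these values are descriptions. Among the 26 members lowest in GC content (35.01% to 45.6%), 24 had a SW480 log2 fold change below 0 and the median was -0.24. Among the 26 highest in GC content (54.1% to 66.7%), 18 had a value above 0 and the median was 0.07.

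**Figure D2:**
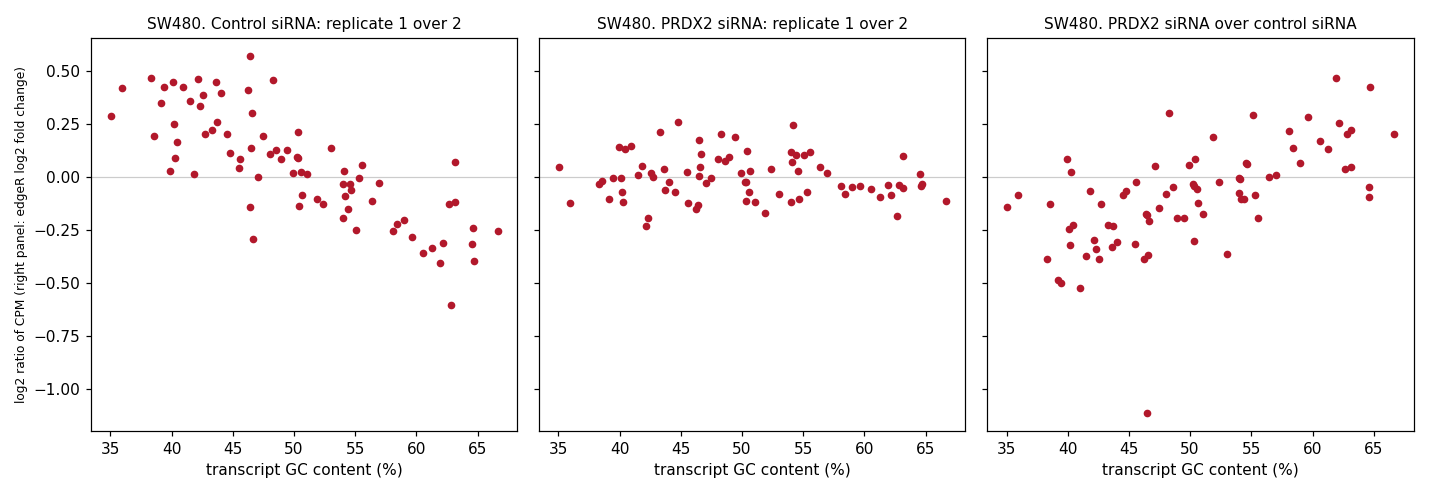
Each point is 1 of 78 members in SW480, placed by the GC content of its transcripts in percent. The left panel gives the log2 ratio of the normalised CPM of the siCon duplicates, which falls from above 0 to below 0 with GC content, the middle panel gives the same ratio for the siPrdx2 duplicates, which stays near 0, and the right panel gives the edgeR log2 fold change of the knockdown, which rises with GC content.

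Leaving out either siCon library changed the SW480 result. Without siCon replicate 1, 12 of 78 members were called, 3 higher and 9 lower, beside 24.6% of all genes tested (11.4% higher and 13.1% lower), and the medians of the 26 lowest and 26 highest in GC content were -0.10 and 0.00. Without siCon replicate 2, 41 of 78 were called, 12 higher and 29 lower, beside 52.8% of all genes (26% higher and 26.8% lower), and the medians were -0.35 and 0.13. A group left with 1 library is assumed to vary like the other. With each library corrected along GC content, 7 members were called, all lower, beside 8.51% of all genes called lower. The medians of the 26 lowest, 26 middle and 26 highest in GC content were then -0.07, -0.07 and -0.07. Even medians along GC content are what this correction is built to give. Over all members tested the corrected median was -0.07, and over all genes it was 0.02.

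The 7 members called after the GC correction were MRPL12, MRPL33, MRPL47, MRPL52, MRPS15, MRPS27 and MRPS34. MRPS15, a counterpart of bacterial S15, had the largest corrected value, -0.40 (SE 0.08, edgeR adjusted p = 0.00773), and an uncorrected one of -0.37 (SE 0.12). MRPS34 had a corrected value of -0.38 (SE 0.07, edgeR adjusted p = 0.00407) and an uncorrected one of -0.09 (SE 0.13). MRPL12 had a corrected value of -0.34 (SE 0.07, edgeR adjusted p = 0.00788) and an uncorrected one of -0.05 (SE 0.12). For MRPL12 and MRPS34 the sign also turned with the library left out: without siCon replicate 1 the values were -0.16 and -0.25, and without siCon replicate 2 they were 0.07 and 0.07. MRPL33, MRPL47, MRPL52, MRPS15 and MRPS27 were below 0 in each of these fits.

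The intervals in SW480 were wider than in HT29. They lay within 1.5-fold in either direction for 56 of 78 members, with a median half-width of 0.30 on the log2 scale. MRPS12 had a log2 fold change of 0.28 (95% interval -0.02 to 0.58), MRPL3 had -0.18 (-0.43 to 0.06), MRPL12 had -0.05 (-0.31 to 0.22), and MRPS16 had -0.03 (-0.28 to 0.21). The 3 stalk proteins MRPL10, MRPL11 and MRPL12 together ranged from -0.07 to -0.04 in SW480 and from -0.03 to 0.07 in HT29, with 0 of 3 called by edgeR in either line.

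The response of the members to knockdown was then compared between the lines in 1 fit of all 8 libraries. By edgeR, 0 of 79 members differed, beside 1.12% of the 14772 genes tested, with 14 members (17.7%, against 19.2% of all genes) at an unadjusted p under 0.05. DESeq2 called 0 members (2.11% of all genes) and limma on log2(TPM + 1) called 0 (0.697%). The smallest p-values belonged to MRPL45, MRPS27, MRPL47, MRPS31 and MRPS24. The log2 fold change of MRPL45 was -0.01 for HT29 and -0.32 for SW480, a difference of 0.31 (SE 0.10, edgeR adjusted p = 0.137). For MRPS27, a pentatricopeptide repeat protein of the small subunit, the values were 0.06 and -0.37, a difference of 0.43 (SE 0.14, edgeR adjusted p = 0.147). MRPL47 differed by 0.51 (SE 0.17) and MRPS31 by 0.44 (SE 0.15), both lower in SW480, whereas MRPS24 had -0.19 in HT29 and 0.22 in SW480, a difference of -0.40 (SE 0.14, edgeR adjusted p = 0.164). Without SW480 siCon replicate 1 this fit called MRPL45 and MRPS27 (9.32% of all genes), and without SW480 siCon replicate 2 it called 33 of 79 members, beside 35.7% of all genes. After the GC correction it called MRPL12 (0.34, SE 0.09) and MRPS34 (0.33, SE 0.08), beside 6.3% of all genes.

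The proteins of the cytosolic ribosome were counted from the same fits. In HT29, 71 of 77 cytosolic ribosomal protein genes fell and 0 rose, with a median log2 fold change of -0.18, beside the 2 of 79 members. In SW480, 21 of 77 fell, with a median of -0.32, beside 0 of 78 members. The cytosolic genes took 15.4% of all TPM in both HT29 siCon libraries and 13.95% and 14.2% in the siPrdx2 libraries, and in SW480 they took 11.3% and 11.7% with siCon and 9.78% and 9.56% with siPrdx2. The nuclear subunits of the respiratory chain, whose mitochondrial partners this ribosome makes, had 13 of 79 genes lower and 0 higher in HT29 (16.5% called, beside 17.6% of all genes) and 0 of 80 called in SW480 by edgeR (3.3% of all genes). These counts stand side by side, and the differences between the lists were not tested.

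**Figure D3:**
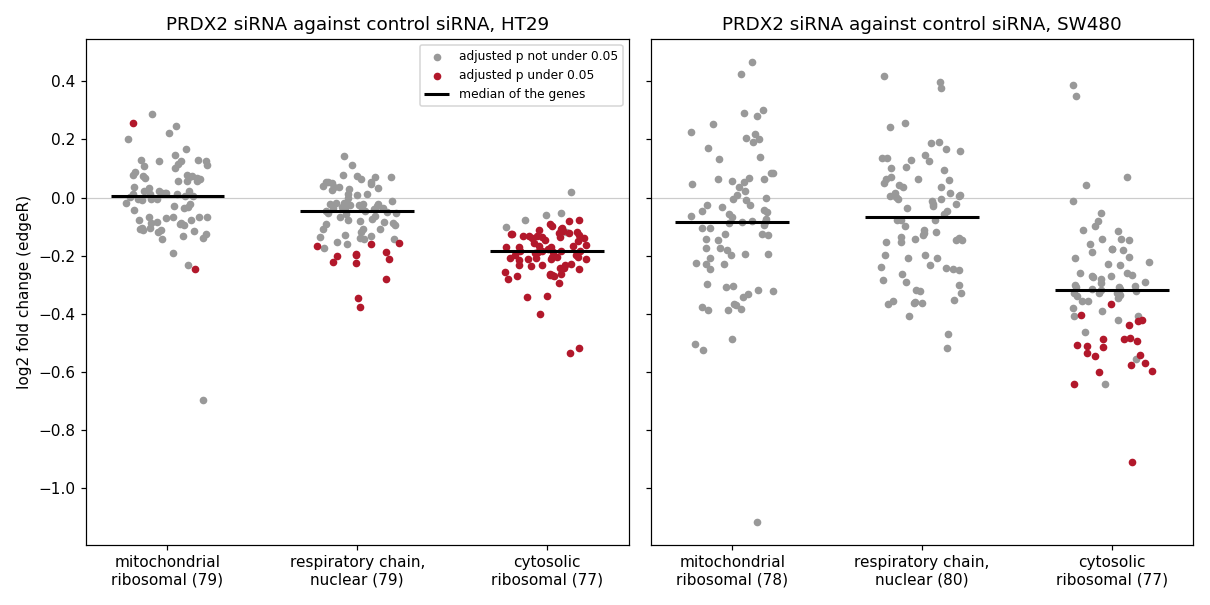
Each point is 1 gene, placed by its edgeR log2 fold change of siPrdx2 against siCon in HT29 (left) and SW480 (right), for the mitochondrial ribosomal genes, the nuclear respiratory chain subunits and the cytosolic ribosomal proteins, with black lines at the medians. In HT29 the mitochondrial ribosomal genes centre on 0 with 2 of 79 called, while the cytosolic ones centre on -0.18 with 71 of 77 called.

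The other parts of the mitochondrial translation system were counted in the same way. Among 7 mitoribosome proteins without an MRPL or MRPS row of their own in these tables, DAP3 among them, 0 were called by edgeR in either line. Among 14 translation factors, TUFM, the elongation factor that delivers transfer RNA, and TSFM, its exchange factor, rose in HT29 (14.3% of the factors, beside 17.6% of all genes). An unadjusted p under 0.05 was found for 42.9% of the factors, beside 30.2% of all genes. TUFM stood at 246 and 254 CPM with siCon and 270.2 and 286 CPM with siPrdx2, a log2 fold change of 0.15 (SE 0.04, edgeR adjusted p = 0.00937). TSFM stood at 48.4 and 51.5 CPM with siCon and 59.1 and 58.9 CPM with siPrdx2, a log2 fold change of 0.24 (SE 0.06, edgeR adjusted p = 0.0119). For both, the HT29 groups did not overlap, and in SW480 the values were 0.16 (SE 0.12) and 0.00 (SE 0.12), with 0 of 14 factors called by edgeR. Among 26 assembly and rRNA processing factors in HT29, the rRNA methyltransferase NSUN4 (0.27, SE 0.08) and the GTPase GTPBP10 (0.22, SE 0.06) rose and the GTPase MTG1 (-0.30, SE 0.10) fell (11.5% of the list), and in SW480 0 were called by edgeR. The genes of mitochondrial transcription (8) and the regulators of nuclear genes for mitochondria (10, with GABPA and YY1) had 0 calls by edgeR in either line.

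The larger differences among these genes lay between the lines. Medium and any difference in library preparation or sequencing cannot be told apart from the line here. With control siRNA alone, 40 of 79 members differed between SW480 and HT29 by edgeR, beside 67.5% of the 14346 genes tested. Of the 76 protein genes, 23 were higher in SW480 and 16 lower, beside 35.7% and 31.8% of all genes, and the pseudogene MRPL42P5 was lower. The median log2 ratio of SW480 to HT29 was 0.04 for the members and 0.04 for all genes, and the median absolute log2 ratio was 0.34 for the members and 0.69 for all genes. The libraries of the lines did not overlap for 65 of 79 members, beside 84% of all genes tested. On log2(TPM + 1), limma called 44 members (65.8% of all genes), 33 of them higher in SW480 (39.2% of all genes), and the median over all genes was then 0.15, so the split into higher and lower depends on the scale.

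The members most above HT29 in SW480 were MRPS6, MRPS22, MRPS17, MRPL34 and MRPL52. MRPS6, the counterpart of bacterial S6 on the platform of the small subunit, stood at 45.5 and 41.7 CPM in HT29 and at 241 and 211 CPM in SW480, a log2 ratio of 2.37 (SE 0.12, edgeR adjusted p = 6.39e-07), or 5.19-fold. MRPS22 stood at 32.6 and 32.9 CPM in HT29 and at 84.1 and 83.4 CPM in SW480, a log2 ratio of 1.36 (SE 0.12, edgeR adjusted p = 1.26e-05). MRPS17, the counterpart of bacterial S17, stood at 19.2 and 17.97 CPM in HT29 and at 49.9 and 43.1 CPM in SW480, a log2 ratio of 1.32 (SE 0.14). In all 3 genes the lines were far apart and the duplicates close. MRPL34, the counterpart of bacterial L34, had a log2 ratio of 1.09 (SE 0.15) and MRPL52, of the central protuberance, 0.92 (SE 0.12).

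Several of these genes share exonic sequence with a neighbour. In the GENCODE annotation of GRCh37, MRPS6 (chromosome 21, 35445524 to 35515334, plus strand) overlaps SLC5A3 on the same strand, MRPS17 overlaps NIPSNAP2 on the same strand, and MRPS22 and MRPL34 overlap COPB2 and ABHD8 on the opposite strand. The library kit does not mark the strand, so reads from such overlaps could be assigned to either gene. At baseline the log2 ratio of SW480 to HT29 was 2.004 (SE 0.11) for SLC5A3, 0.83 (SE 0.11) for COPB2, 0.25 (SE 0.13) for NIPSNAP2 and 1.68 (SE 0.23) for ABHD8. How much of the members' values such reads make up was not tested. Over the 76 protein genes, 23 overlap an exon of another protein-coding gene, 16 of them on the opposite strand and 7 on the same strand. MRPL52 has no such overlap.

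The members most below HT29 in SW480 were MRPL13, MRPS21, MRPL48, MRPL45 and MRPL23, none of which has an overlap of this kind. MRPL13, the counterpart of bacterial L13, stood at 138 and 140.4 CPM in HT29 and at 54.1 and 42.9 CPM in SW480, a log2 ratio of -1.52 (SE 0.13, edgeR adjusted p = 1.54e-05). MRPS21, the counterpart of bacterial S21, stood at 26.7 and 31.4 CPM in HT29 and at 11.9 and 8.66 CPM in SW480, a log2 ratio of -1.50 (SE 0.19, edgeR adjusted p = 0.000150). The lines did not overlap for either. MRPL48 and MRPL45 stood at about the same distance, with log2 ratios of -0.98 (SE 0.16) and -0.97 (SE 0.10), and MRPL23, which lies at the tunnel exit, had -0.83 (SE 0.12). MRPL45 has a pseudogene, MRPL45P2, which held 1.38 to 2.62 CPM in these 4 libraries, beside 80.3 to 161 CPM of the gene.

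**Figure D4:**
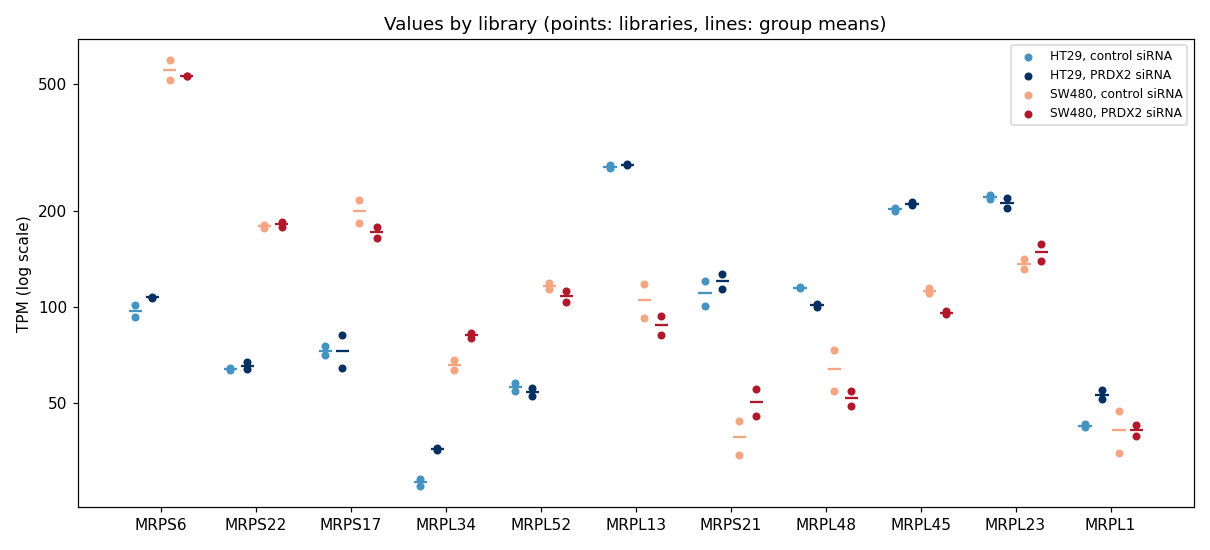
TPM on a log scale in each of the 8 libraries for the 10 genes with the largest differences between the lines and for MRPL1, with points for libraries and short lines for group means. For the 10 genes every SW480 library lies apart from every HT29 library with either siRNA, whereas for MRPL1 the lines overlap and the HT29 siPrdx2 libraries are the highest.

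Within one structure, members were called in both directions between the lines. Among 8 genes of the central protuberance, 2 were higher in SW480 and 3 lower, with MRPL52 and MRPL48 on opposite sides. Among 6 genes of the tunnel exit, MRPL47 was higher (0.75, SE 0.15), MRPL45 and MRPL23 were lower, and the other 3 were not called. The 3 stalk genes lay between 0.17 and 0.25, and 0 were called by edgeR, whereas limma on log2(TPM + 1) called MRPL11 and MRPL12. By symbol, 25 of 47 MRPL genes (53.2%) and 14 of 29 MRPS genes (48.3%) were called, beside 67.5% of all genes. Of 46 members with a bacterial counterpart 43.5% were called, and of 30 particular to mitochondria 63.3%, both below the 67.5% of all genes tested.

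The remaining members with a fixed role lay closer together. MRPL44 was lower in SW480 (-0.40, SE 0.14, edgeR adjusted p = 0.0343), as were MRPS18A (-0.42, SE 0.14, edgeR adjusted p = 0.0239) and MRPS30 (-0.49, SE 0.13, edgeR adjusted p = 0.00987). The values of MRPS18B and MRPS18C were -0.20 (SE 0.12) and 0.30 (SE 0.15), and neither was called. MRPS12 had -0.12 (95% interval -0.44 to 0.19), MRPL3 had 0.06 (-0.18 to 0.30), MRPL12 had 0.25 (-0.03 to 0.53), MRPS16 had -0.25 (-0.49 to -0.00), MRPS36 had 0.12 (-0.34 to 0.57) and MRPL42 had 0.01 (-0.36 to 0.37). MRPL51 was higher in SW480 (0.72, SE 0.10), and so were MRPS25 (0.43, SE 0.12), MRPL19 (0.53, SE 0.14), MRPS31 (0.57, SE 0.14) and MRPL47.

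Of the 39 protein genes called between the lines, 20 were called in the same direction in each of the 12 settings run, 12 of them higher in SW480 and 8 lower. The 8 were MRPL13, MRPS21, MRPL48, MRPL45, MRPL23, MRPL43, MRPL40 and MRPL14. The 12 were MRPS6, MRPS22, MRPS17, MRPL34, MRPL52, MRPS9, MRPL50, MRPL32, MRPL47, MRPL51, MRPL39 and MRPL33. All 39 had the same direction in each of the 12 settings. The shares of all genes that meet these rules were not counted, so the 20 and the 39 have no background beside them. The number of members called was 21 and 20 without the first and second HT29 siCon library, beside 50.3% and 50.1% of all genes. It was 55 and 60 without the first and second SW480 siCon library, beside 75% and 77.4% of all genes.

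The pseudogenes MRPL42P5 and MRPL45P2 were read at low levels, and MRPS31P5 at higher ones. MRPL42P5 stood at 1.68 and 2.02 CPM in HT29 siCon and at 0.551 and 0.509 CPM in SW480 siCon, a log2 ratio of -1.78 (SE 0.41, edgeR adjusted p = 0.00472). MRPL45P2 stood at 2.54 and 1.71 CPM in SW480 siCon and at 1.03 and 0.910 CPM in SW480 siPrdx2, a log2 fold change of -1.12 (SE 0.40, edgeR adjusted p = 0.138). MRPS31P5, at 11.4 to 18.3 CPM in the knockdown fits, had log2 fold changes of 0.25 (SE 0.12) in HT29 and -0.06 (SE 0.18) in SW480. Reads of a pseudogene and its parent gene can be exchanged in counting, so these values are uncertain.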

How the data were processed

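Messenger RNA was measured in 8 libraries (HT29 and SW480, siCon and siPrdx2, 2 each), grouped by the sample labels. For refGene symbols, the authors deposited expected counts and TPM values, which RSEM had estimated from paired reads placed on hg19 by MapSplice. The methods state this for HT29, and the SW480 files were taken to be made alike. The use of strand in counting is not given in the sources used here. The members and gene lists were chosen with earlier results of these data known.

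Expected counts were rounded and tested with edgeR 4.0.16 (glmQLFit and glmQLFTest, TMM, Benjamini-Hochberg over all genes, threshold 0.05) for symbols reaching 10 counts in 2 or more libraries of the fit. Each line was fitted by itself. The difference between the lines used all 8 libraries, and the baseline comparison used the 4 siCon libraries. CPM values are normalised within each fit. The SE is the log2 fold change divided by the root of the F statistic. Alternatives were RLE normalization, no filter, a mean of at least 5 CPM, DESeq2 1.42.0, limma 3.58.1 with pseudocounts of 1 and 0.1 TPM on the log2 scale, a GC correction (a loess offset of span 0.5 on transcript GC content), a replicate block, all 8 libraries together, and leaving out each library. Named were PRDX2, the 6 largest called rises and falls in each line with a mean of at least 5 CPM, the 5 smallest p-values in the test between lines, the 5 largest called differences at baseline in each direction, the 4 highest and 4 lowest mean TPM, 13 genes fixed by role, the pseudogenes, and called mitoribosome proteins and translation factors. MRPL2, MRPL33, MRPL4, MRPS26, MRPS15, MRPS34, the called assembly factors and the other genes called at baseline in each setting were added after their values were seen. GENCODE on GRCh37 matched 92.5% of symbols and 78 of 79 members. The scripts were tested on simulated counts.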

Additional observations from a re-analysis of the deposited data

Results flagged for a closer look

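The effect of the siRNA on its own target differed between the lines: the log2 fold change of PRDX2 in HT29 minus that in SW480 was 0.84 (SE 0.12, edgeR adjusted p = 0.0128), so that PRDX2 fell further in SW480. PRDX2 was lower in 2 of 2 siPrdx2 libraries of each line. Its siCon level was also higher in SW480 (log2 ratio 0.49, SE 0.11, edgeR adjusted p = 0.00447). The knockdown comparisons of the mitochondrial ribosomal genes in the lines therefore rest on unequal reductions of PRDX2.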

How the results depend on the processing

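With 2 libraries a group, the counts of members called moved with the settings, as did the counts of all genes called. Among 2004 values of single named genes under other settings, 122 passed the threshold newly, 45 no longer passed it, and 144 that passed in neither fit moved by more than 1 SE. In 121 the sign differed from the reported one, 37 of them for the SW480 knockdown, and 0 of these 121 passed the threshold in either fit. In HT29, where 2 members were called (17.6% of all genes), no filter gave 1 (12.4%) and DESeq2 gave 0 (6.72%). Limma gave 9 with either pseudocount (13.9% and 13.8%), the GC correction 4 (21.4%) and all 8 libraries together 0 (1.25%). In SW480, where 0 were called, the GC correction gave 7 (17% of all genes), all 8 libraries together 8 (16.3%), and leaving out 1 library 0 to 41. For the difference between the lines, where 0 were called, the GC correction gave 2 and leaving out 1 library 0 to 33. Between the lines at baseline, leaving out 1 library gave 20 to 60 called members, DESeq2 gave 30, and the GC correction gave 59, where 40 were reported.

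The members' median log2 fold change in HT29 was 0.0684 and 0.0693 with limma at pseudocounts of 1 and 0.1 TPM, where the median over all genes was 0.0594 and 0.0639, and -0.0172 to 0.0215 with 1 library left out. In SW480 it was 0.00528 and 0.00532 with limma, where the median over all genes was 0.08 and 0.09, and -0.0878 to -0.0471 with 1 library left out. At baseline it was 0.0488 with RLE normalization, 0.0257 with no filter, 0.0875 with a mean of at least 5 CPM, 0.0489 with DESeq2, 0.168 and 0.179 with limma, 0.0217 with the GC correction and 0.0146 to 0.158 with 1 library left out. On the limma scale the median over all genes at baseline was 0.15 and 0.16. The cause of these moves was not tested.

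The labels give the groups the same replicate numbers but no shared batch or day. Deviations of same-numbered libraries correlated at 0.104 in HT29 and 0.106 in SW480, over 1 pairing of 2 numbers each. The replicate block called 5 members in HT29 (22.3% of all genes), 4 in SW480 (12.2%; MRPL33, MRPL47, MRPS26 and MRPL4) and 0 for the difference (1.33%), and with the GC correction it called 5 (23.8%), 12 (22.3%) and 3 (6.33%).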
